A study of Mus musculus with 10 samples.

Results

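The genes described here are 10 genes of MHC class I antigen presentation, taken by name from a list among the 17864 genes counted in whole mammary tumors of mice. They are the heavy chains H2-K1 and H2-D1, the light chain B2m, the peptide transporter genes Tap1 and Tap2, the loading factor Tapbp, the immunoproteasome subunits Psmb8 and Psmb9, the trimming peptidase Erap1 and the transactivator Nlrc5. All 10 were found in the table by their Ensembl identifiers, and all 10 had enough counts to be tested. The rule takes the genes by name and uses no measured value, but the list was chosen with earlier results of these data known.

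RNA was sequenced from 5 sgCon tumors and 5 sgTaz tumors. Both groups were grown from 4T1 cells, a triple-negative mammary carcinoma line of BALB/c origin, that carried Cas9 in both groups. The sgCon cells carried a control guide RNA, and the sgTaz cells a guide RNA against Wwtr1, the gene of the Hippo pathway transducer TAZ. Cells were injected into the fat pad of the 4th mammary gland of female mice aged 6 to 8 weeks. The methods name both BALB/c and SCID mice as hosts, and the labels do not give the strain of the hosts of the sequenced tumors. Because whole tumors were extracted, tumor cells and all host cells in the tumor contributed to each value. Between 12185383 and 19595821 counts were assigned to genes per tumor. The tumors of a group carry replicate numbers, and nothing in the labels ties a number to a litter, a day or a batch.

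Class I molecules display peptides from inside the cell to CD8+ T cells. Proteins are cut by the proteasome, which in inflamed cells carries the immunoproteasome subunits, and the peptides are pumped into the endoplasmic reticulum by the Tap1 and Tap2 transporter, trimmed by Erap1 and fitted into a heavy chain paired with B2m with the help of Tapbp. Nlrc5, through factors on the S, X and Y boxes of the promoters, and interferon-gamma, through IRF factors, are the known drivers of these genes, and loss of class I is a known route by which tumors escape T cells.

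The promoters are shown first because the listed genes differ in the elements just named. In the promoter table of RefSeq (build GRCm38.p6), 8 of the 10 genes had an entry, and Tap2 and Nlrc5 had none. The 250 bases before the transcription start were searched on both strands for GAAANNGAA or GAANNGAAA, the core of the interferon-stimulated response element (ISRE). On the strand of the gene, TGACG (the core of the X2 box) followed by ATTGG (the Y box) was searched with their first bases 25 bases apart. These letters and this distance were chosen after the sequences had been seen. The sequences below are those of H2-K1 and B2m, which hold both an ISRE core and the pair, and of Gbp7, a GTPase gene induced by interferon-gamma that holds ISRE cores and no pair. Capitals mark these matches, and overlapping matches run together.
H2-K1, chr17:34000348-34000597, minus strand: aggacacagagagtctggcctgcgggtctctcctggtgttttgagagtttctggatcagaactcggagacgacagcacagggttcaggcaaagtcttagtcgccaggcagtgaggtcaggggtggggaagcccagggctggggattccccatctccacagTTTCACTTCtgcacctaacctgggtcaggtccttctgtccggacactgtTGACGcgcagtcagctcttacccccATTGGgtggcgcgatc
B2m, chr2:122147437-122147686, plus strand: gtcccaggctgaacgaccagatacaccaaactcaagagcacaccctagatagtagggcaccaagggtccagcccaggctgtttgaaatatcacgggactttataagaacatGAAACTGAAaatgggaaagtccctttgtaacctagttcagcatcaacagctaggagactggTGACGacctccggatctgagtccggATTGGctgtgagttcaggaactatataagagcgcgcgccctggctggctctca
Gbp7, chr3:142530086-142530335, plus strand: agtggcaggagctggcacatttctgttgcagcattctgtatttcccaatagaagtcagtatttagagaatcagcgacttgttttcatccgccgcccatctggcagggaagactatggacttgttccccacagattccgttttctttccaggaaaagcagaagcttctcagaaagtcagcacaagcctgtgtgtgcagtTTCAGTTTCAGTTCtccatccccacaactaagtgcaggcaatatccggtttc

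The pair of TGACG and ATTGG at this distance was found in the promoters of H2-K1, H2-D1 and B2m among the 8 listed genes with an entry. Among all 32851 promoters of the table it was found in 18, or 0.0548%, which belong to 15 genes. One of the other 12 genes is H2-M3, a non-classical class I heavy chain gene on chromosome 17, where H2-K1 and H2-D1 also lie. BC051142 and Trim26, also among the 12, lie on chromosome 17 as well, and B2m lies on chromosome 2. The 30 bases from TGACG to ATTGG are set side by side below, because they show how far the stretch is shared.
H2-K1: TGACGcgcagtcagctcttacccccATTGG
H2-D1: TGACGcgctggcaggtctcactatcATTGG
B2m: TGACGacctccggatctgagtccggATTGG
H2-M3: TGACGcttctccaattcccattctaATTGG
Of the 20 bases between the capitals, 13 were equal in H2-D1 and H2-K1, 7 in H2-M3 and H2-K1 and 3 in B2m and H2-K1. The ISRE core was present in the promoters of H2-K1, H2-D1, B2m and Erap1, that is in 4 of the 8 genes, and in 12.5% of all promoters. The RefSeq start of Erap1 used here lies inside the gene as annotated by GENCODE, which begins at chr13:74639568. The ISRE core lies next to that RefSeq start, as the last letters of the 30 bases at chr13:74639823-74639852.
Erap1: cacgtgccctgccggtccaccTTCACTTTC
Of the listed genes, H2-D1, Tapbp, Psmb8 and Psmb9 also have the RefSeq start used here inside the GENCODE gene. For Tapbp the bases searched were chr17:33919228-33919477, and the GENCODE gene begins at chr17:33915899. Bases before the GENCODE starts of these genes and of Erap1 were not searched, so that a core or pair there would not have been seen. A match of letters is a description of the sequence and not a site of binding.

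Wwtr1, the targeted gene, was at 192, 181, 115, 171 and 156 CPM in sgCon tumors 1 to 5, where CPM is the count scaled to the TMM-normalized total of the library. It was at 86.6, 104, 110, 139 and 102 CPM in sgTaz tumors 1 to 5. Values below the whole sgCon group were found in 4 of the 5 sgTaz tumors, and tumor 4 was the exception. The fold change was -0.59 on the log2 scale (standard error, SE, 0.15, edgeR adjusted p = 0.096, DESeq2 adjusted p = 0.0149). An edit by Cas9 need not lower the RNA of a gene, and host cells also have Wwtr1 RNA, so that this value is a weak check of the labels.

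None of the 10 class I presentation genes passed an adjusted p below 0.05 in edgeR's quasi-likelihood test of sgTaz against sgCon tumors, in which 1 of 14816 genes did (0.00675%). At an unadjusted p below 0.05, 1 of the 10 passed, Erap1, beside 21.8% of all genes tested. Erap1 was also the only one called by DESeq2, which called 6.87% of its genes, and by limma-voom with sample quality weights, which called 10.4%. The log2 fold change was above 0 in 8 of the 10 genes and below 0 in H2-K1 and Psmb9, with a median of 0.080 beside -0.019 over all genes tested. The median absolute log2 fold change was 0.12 in the 10 genes and 0.18 in all genes tested, and the median standard error 0.10 and 0.14. The 95% interval of the ratio of sgTaz to sgCon, not adjusted for the number of genes, held 1 for 9 of the 10. It was widest for H2-K1 and Psmb9, and for the other 7 (H2-D1, B2m, Tap1, Tap2, Tapbp, Psmb8 and Nlrc5) it lay between 0.858 and 1.38. In whole tumors, fewer cells of a type and less RNA per cell cannot be told apart.

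**Figure D1:**
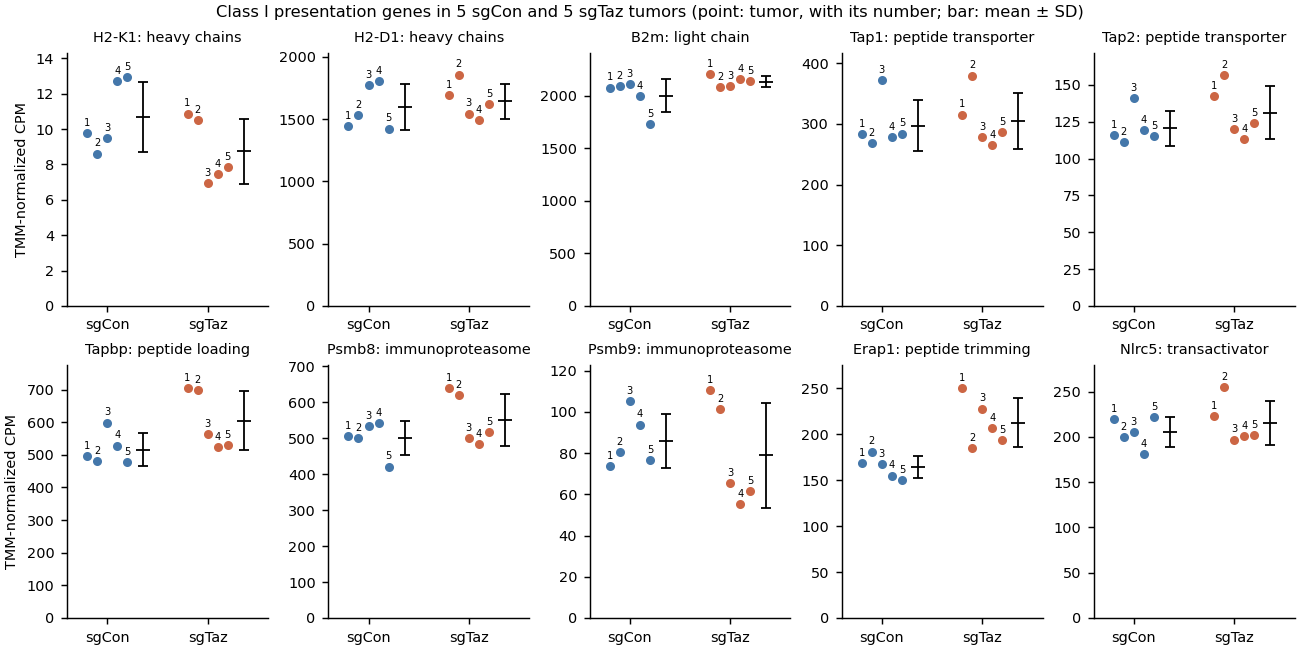
TMM-normalized CPM (vertical axes, from 0) of the 10 class I presentation genes in each sgCon (blue) and sgTaz (orange) tumor, with the number of the tumor beside its point and a bar for the mean ± SD of the 5 tumors of a group. The groups overlap in every panel except that of Erap1, and sgTaz tumors 1 and 2 lie above sgTaz tumors 3 to 5 in 8 of the 10 panels, all but those of B2m and Erap1.

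The order of the genes was compared on CPM divided by the exon length of the gene in kilobases, as medians over the 10 tumors. B2m was highest at 2439 per kilobase, followed by H2-D1 at 614, and neither overlapped its neighbours in any tumor. Psmb8 (151) and Tapbp (146) followed with ranges that overlapped. Tap1 at 51.8 (range 48.5 to 69.4) lay above Tap2 at 31.6 (29.4 to 41.4), and the ranges of Tap2, Erap1 (25.1), Nlrc5 and Psmb9 (21.5) overlapped from one to the next. H2-K1 was lowest, at 3.28 per kilobase with a range of 2.37 to 4.41.

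The heavy chains form the groove that holds the peptide, and H2-K1 and H2-D1 are the classical genes at both ends of the H2 complex of chromosome 17. H2-D1 (ENSMUSG00000073411.11, chr17:35262730-35267499 of mm10) was at 1441, 1530, 1774, 1805 and 1423 CPM in sgCon tumors 1 to 5. It was at 1694, 1857, 1544, 1491 and 1620 CPM in sgTaz tumors 1 to 5. The groups overlapped, with sgTaz tumor 2 alone above every sgCon tumor. Its log2 fold change, sgTaz over sgCon, was 0.042 (SE 0.097, 95% interval -0.17 to 0.25, edgeR adjusted p = 0.831), and without sgTaz tumor 2 it was -0.0058.

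H2-K1 (ENSMUSG00000061232.16, chr17:33996017-34000347) was at 9.79, 8.61, 9.48, 12.7 and 12.9 CPM in sgCon tumors and at 10.9, 10.5, 6.97, 7.45 and 7.86 CPM in sgTaz tumors, in the order of their numbers. Tumors 3 to 5 of sgTaz were below every sgCon tumor, and sgTaz tumors 1 and 2 lay among the sgCon tumors. On the log2 scale the change was -0.29 (SE 0.18, 95% interval -0.68 to 0.10, edgeR adjusted p = 0.359). These values rest on 92 to 229 counts per tumor, against 18426 to 32509 for H2-D1.

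The levels of H2-K1 and H2-D1 are uncertain, and so are their places in the order of genes and their ratios to B2m. Reads were mapped to the genome of C57BL/6J, whereas 4T1 cells and BALB/c mice carry other alleles of the classical heavy chains. Whether or how much this changes the counts of either gene was not tested. Heavy chain genes also resemble each other. Of the 50-base words in the annotated transcripts of H2-K1, 9.63% occur in a transcript of another gene, with H2-Q10 the most frequent partner, and 12.8% of those of H2-D1. B2m shares none. How reads with more than 1 match were counted is not stated.

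B2m (ENSMUSG00000060802.8, chr2:122147686-122153083) encodes β2-microglobulin, the invariant light chain without which heavy chains do not reach the surface. It was at 2079, 2097, 2111, 1996 and 1735 CPM in sgCon tumors and at 2206, 2081, 2097, 2160 and 2139 CPM in sgTaz tumors. The sgTaz tumors were within a narrow band, and sgCon tumor 5 was below all the others. On the log2 scale the change was 0.093 (SE 0.075, 95% interval -0.073 to 0.26, edgeR adjusted p = 0.493), the smallest standard error of the 10 genes.

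Tap1 and Tap2 encode the chains of the transporter that carries peptides into the endoplasmic reticulum. Tap1 (ENSMUSG00000037321.17, chr17:34187553-34197225) was at 283, 268, 372, 278 and 284 CPM in sgCon tumors and at 315, 379.8, 278, 266 and 286 CPM in sgTaz tumors. The tumors that stood out were sgCon tumor 3 and sgTaz tumors 1 and 2, so that the high values came from both groups. The log2 fold change was 0.039 (SE 0.12, 95% interval -0.22 to 0.30, edgeR adjusted p = 0.875) and was -0.052 without sgTaz tumor 2. Tap2 (ENSMUSG00000024339.12, chr17:34203527-34216321) was at 116, 111, 141, 119 and 115 CPM in sgCon tumors and at 142, 157, 119.8, 113 and 124 CPM in sgTaz tumors. The same 3 tumors were highest. Its log2 fold change was 0.12 (SE 0.10, 95% interval -0.098 to 0.35, edgeR adjusted p = 0.494).

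Tapbp encodes tapasin, which holds the empty heavy chain at the transporter. Tapbp (ENSMUSG00000024308.15, chr17:33915899-33929292) was at 496, 480.4, 599, 528 and 477 CPM in sgCon tumors and at 705, 697, 563, 522 and 530.2 CPM in sgTaz tumors. Only sgTaz tumors 1 and 2 were above every sgCon tumor. A log2 fold change of 0.23 was fitted (SE 0.11, 95% interval -0.013 to 0.47, edgeR adjusted p = 0.254). Tapbp shares 904 exon bases with Gm19412 on the opposite strand and 149 with Zbtb22 on its own strand, and its counts are uncertain to that extent, since the strand setting of the counting is not stated.

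Psmb8 and Psmb9 encode the immunoproteasome subunits LMP7 and LMP2, which are built in under interferon-gamma in place of Psmb5 and Psmb6. Psmb8 (ENSMUSG00000024338.15, chr17:34197721-34201454) was at 507, 501, 535, 542 and 421 CPM in sgCon tumors and at 640.5, 619, 500.2, 485 and 516 CPM in sgTaz tumors. Here too sgTaz tumors 1 and 2 alone were above every sgCon tumor, and the log2 fold change was 0.14 (SE 0.10, 95% interval -0.086 to 0.37, edgeR adjusted p = 0.444). Psmb9 (ENSMUSG00000096727.3, chr17:34181987-34187764) was at 73.7, 80.6, 105, 93.8 and 76.8 CPM in sgCon tumors and at 111, 101, 65.4, 55.2 and 61.5 CPM in sgTaz tumors. The sgTaz tumors fell on both sides of the sgCon tumors: tumor 1 was above and tumors 3 to 5 were below every one of them. The log2 fold change was -0.13 (SE 0.20, 95% interval -0.56 to 0.30, edgeR adjusted p = 0.740), with the largest standard error of the 10 genes. Psmb9 and Tap1 lie head to head on opposite strands and share 212 exon bases. Tap2 shares 698 exon bases with Gm20496 and Gm15821, Psmb8 498 with Gm20496 and Nlrc5 78 with 9330175E14Rik, all on the opposite strand, and the same limit holds for their counts.

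Erap1 encodes the aminopeptidase of the endoplasmic reticulum that trims peptides to the length of the groove. Erap1 (ENSMUSG00000021583.7, chr13:74639568-74693201) was at 168, 181, 168, 155 and 150 CPM in sgCon tumors and at 249.9, 185, 228, 207 and 193 CPM in sgTaz tumors. The 2 groups did not overlap, with every sgTaz tumor higher, which held for this gene alone of the 10 and for 4.57% of all genes tested in either direction. The margin was small, with sgTaz tumor 2 at 185 CPM and sgCon tumor 2 at 181 CPM. The log2 fold change came to 0.37 (SE 0.092, 95% interval 0.17 to 0.57, edgeR adjusted p = 0.096, DESeq2 adjusted p = 0.0115, limma-voom adjusted p = 0.0295), a ratio of 1.29. With each tumor left out in turn it was between 0.31 and 0.42, and over all alternatives the adjusted p was between 0.0115 and 0.430. Erap1 shares 834 exon bases with Cast on the opposite strand, and counts of both genes cannot be told apart there without the strand.

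Nlrc5 encodes the transactivator that is recruited to the promoters of class I genes. Nlrc5 (ENSMUSG00000074151.13, chr8:94434356-94527272) was at 219.8, 199.5, 206, 181 and 222 CPM in sgCon tumors and at 223, 255, 197, 201 and 202 CPM in sgTaz tumors. The groups overlapped, with sgTaz tumor 2 highest and sgCon tumor 4 lowest. The log2 fold change was 0.068 (SE 0.089, 95% interval -0.13 to 0.26, edgeR adjusted p = 0.685). It was 0.0011 without sgTaz tumor 2 and -0.012 with limma-voom.

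**Figure D2:**
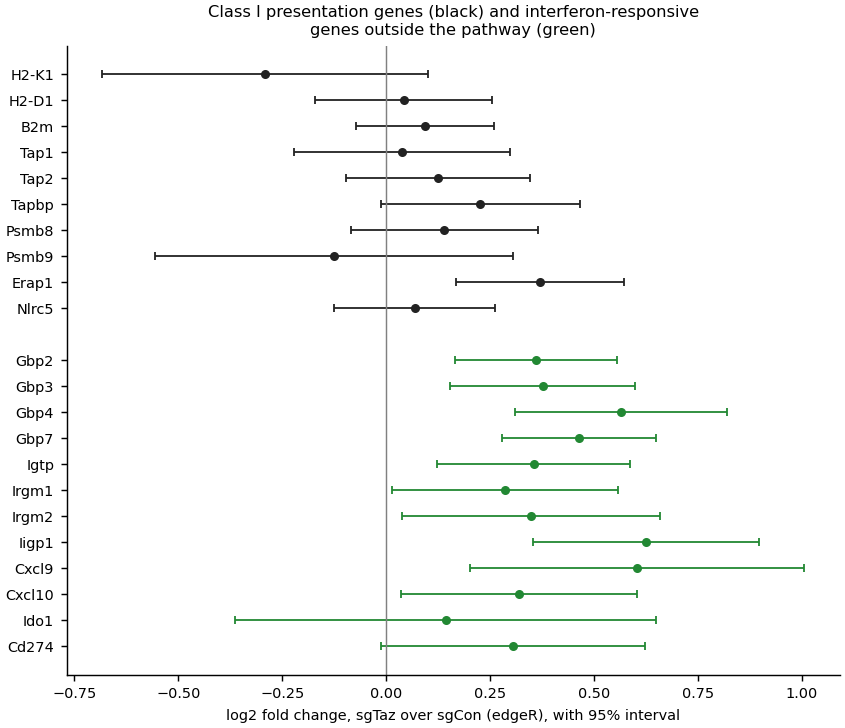
Log2 fold change of sgTaz over sgCon tumors (horizontal axis) from edgeR, with its 95% interval, for the 10 class I presentation genes in black and 12 interferon-gamma responsive genes outside the pathway in green. The interval holds 0 in 9 of the 10 class I genes, the exception being Erap1, and all 12 green points lie above 0.

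The 10 genes also varied between tumors of the same group. In sgTaz tumor 1, 10 of the 10 genes were above their own mean over the 10 tumors, by 0.22 on average on the log2 scale, and in sgTaz tumor 2 it was 9 of the 10, by 0.22. In sgTaz tumors 3, 4 and 5, 3, 2 and 3 of the 10 genes were above their mean. In sgCon tumors 1 to 5, the number was 3, 2, 7, 4 and 2. The sgTaz group was thus not uniform for these genes, with tumors 1 and 2 apart from the other 3. Several marker lists of other cells also differed between these 2 sets of sgTaz tumors. The summed CPM was lower in sgTaz tumors 1 and 2 than in sgTaz tumors 3 to 5 for 8 of 14 lists, those of B cells, macrophages, neutrophils, fibroblasts, endothelium, adipocytes and red blood cells and Ptprc of all leukocytes, and higher for 0. In sgTaz tumors 1 to 5 it was 1993, 1589, 2094, 2244 and 2189 for macrophage, 68.7, 109.5, 175, 175.5 and 272 for neutrophil and 1780, 3424, 3859, 4428 and 4797 for fibroblast genes, and Ptprc was at 167.5, 139, 200, 223 and 366 CPM. It was 7.13, 6.20, 53.4, 59.6 and 91.8 for 4 red blood cell genes, 52.4, 39.7, 241, 205 and 238 for adipocyte genes and 337, 284, 479, 579 and 541 for endothelial genes. The summed CPM of epithelial genes was 1628 and 4022 in sgTaz tumors 1 and 2, the lowest and highest of the group. In sgTaz tumors 3 to 5 it was 2105, 2075 and 2217. The share of all genes with the order of the 8 lists was not counted. The part of these cells in the split was not tested.

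**Figure D3:**
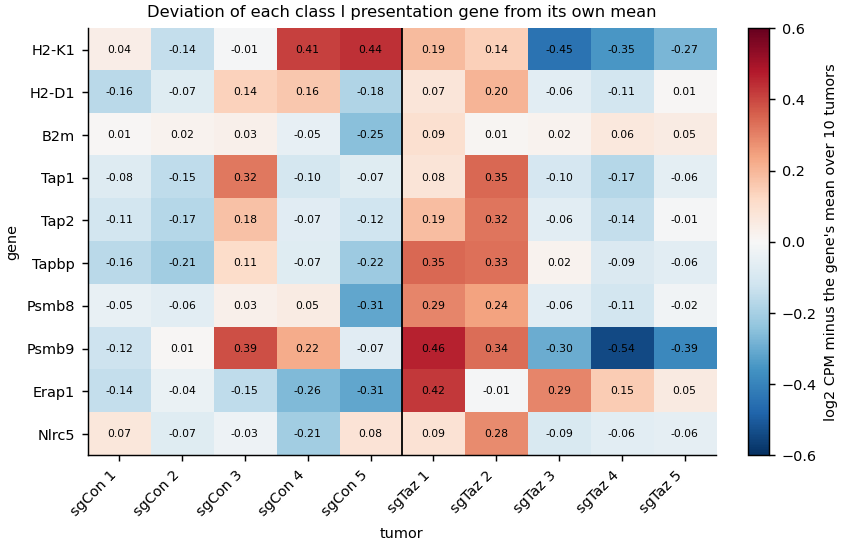
Log2 CPM of each class I presentation gene (vertical axis) in each tumor (horizontal axis) minus its mean over the 10 tumors, as colour and number, with sgCon tumors left of the line. Columns sgTaz 1 and sgTaz 2 are above 0 in 10 and 9 genes. Columns sgTaz 3 to 5 are all below 0 for H2-K1, Tap1, Tap2, Psmb8, Psmb9 and Nlrc5. They are all above 0 for B2m and Erap1 and on both sides of 0 for H2-D1 and Tapbp.

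After the group means were taken off, 38 of the 45 pairs among the 10 genes had a Pearson's r above 0 over the 10 tumors, with a median of 0.47. Without sgTaz tumors 1 and 2, the tumors farthest from the median, the median was 0.25 and 35 pairs were above 0. For this and the values below without those 2 tumors, the group means were not taken anew. The other sgTaz tumors thus kept an offset set by the 2 left out, and these values are not free of them. The closest pairs were Psmb9 with Tapbp (r = 0.97, Spearman's rho = 0.90, r = 0.94 without those 2 tumors) and Tap1 with Tap2 (r = 0.97, rho = 0.89, r = 0.97 without them). Tap1, Tap2, Psmb8 and Psmb9 are neighbours on chromosome 17, and all genes of a tumor share its library and cell mixture, so that these values are a description. Of 13891 genes outside all lists with a mean of at least 1 CPM, the 5 most like the mean of the 10 genes on this measure were AC093020.1 (r = 0.97, 0.97 without the 2 tumors), 9130221H12Rik (r = 0.97, 0.96), Zbtb42 (r = 0.96, 0.91), Smim27 (r = 0.94, 0.90) and Rnf185 (r = 0.94, 0.92). Their rho was between 0.84 and 0.92.

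Ratios of 2 genes in the same tumor do not depend on the scaling of the library, and 6 were tested with an exact permutation test of 5 against 5 tumors on the log2 ratio of counts per kilobase. None passed after adjustment over the 6. Tap1 to Tap2 was the nearest, at 0.76 ± 0.064 (SD, n = 5) in sgCon and 0.68 ± 0.048 (SD, n = 5) in sgTaz tumors on the log2 scale, a shift of -0.082 (two-sided p = 0.0476 in the exact test, 0.191 after adjustment). The ratio of Psmb8 to Psmb5, the subunit it replaces, was 1.21 ± 0.21 (SD, n = 5) and 1.41 ± 0.088 (SD, n = 5), a shift of 0.20 (p = 0.0873 in the exact test, 0.191 after adjustment). The ratio of H2-K1 to B2m differed by -0.39 (p = 0.0952 in the exact test, 0.191 after adjustment). The ratios of Psmb9 to Psmb6, Psmb10 to Psmb7 and H2-D1 to B2m differed by -0.056, -0.025 and -0.051, with adjusted p of 0.819, 0.881 and 0.819 in the same exact test. The smallest p that this design allows is 0.00794.

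**Figure D4:**
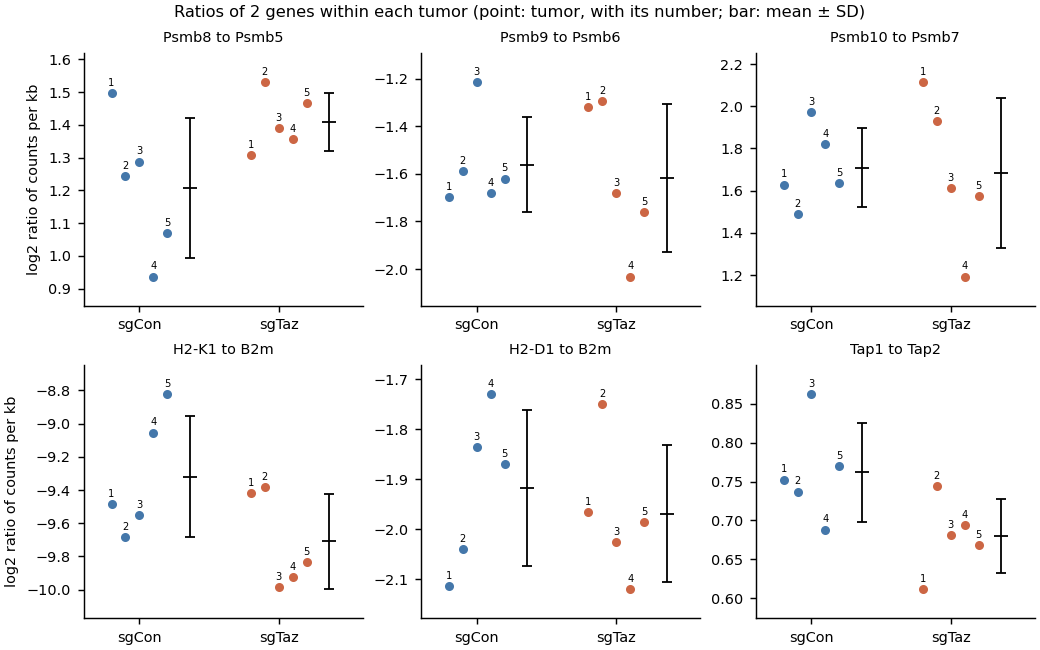
Log2 ratio of counts per kilobase of 2 genes (vertical axes, which do not start at 0) in each sgCon (blue) and sgTaz (orange) tumor, with tumor numbers and the mean ± SD of 5 tumors. The groups overlap in all 6 panels, and in 4 of them, all but Psmb8 to Psmb5 and Tap1 to Tap2, sgTaz tumors 1 and 2 are above sgTaz tumors 3 to 5.

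Other genes of the class I pathway were taken from a list of 61, of which 57 were tested. With edgeR, 0 of the 57 had an adjusted p below 0.05. At an unadjusted p below 0.05, 9 were higher and 6 lower in sgTaz tumors, beside 9.86% and 11.9% of all genes tested. DESeq2 called 6 higher and 2 lower, beside 3.38% and 3.5% of all genes, and limma-voom 7 and 2, beside 4.63% and 5.8%. With the stroma score, the mean log2 CPM of 10 markers of lymph node stroma and high endothelial vessels, as a covariate in edgeR, 5 were higher and 3 lower at an unadjusted p below 0.05, beside 5.31% and 5.84% of all genes. The summed CPM of these markers was 30.8 to 39.5 in sgTaz tumors 1 to 4 and 78.5 to 764 in sgCon tumors. Score and group are thus tied, and no fit with this covariate can fully separate them. The groups did not overlap for 3 of the 57, which were named after their values were seen: Lap3 and Pdia3 were higher in all 5 sgTaz tumors and Rfxank was lower. Over all genes tested, the groups did not overlap for 2.44% that were higher and 2.13% that were lower, so that 3 of 57 is near the background.

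Among 11 tested non-classical heavy chains, 0 were higher and 1 lower at an unadjusted p below 0.05 (9.86% and 11.9% of all genes), and 1 and 0 with the stroma score as a covariate (5.31% and 5.84%). H2-Q4, the most abundant, was at 636 ± 50.7 CPM (SD, n = 5) in sgCon and 685 ± 94.6 CPM (SD, n = 5) in sgTaz tumors. H2-T24 was at 41.4 ± 17.3 and 24.3 ± 4.07 CPM (SD, n = 5 each), a log2 fold change of -0.77 (SE 0.26, edgeR adjusted p = 0.141), and one of -0.14 (SE 0.30) with the stroma score as a covariate. Mr1, which presents vitamin metabolites to MAIT cells, had a log2 fold change of 0.29 (SE 0.14, edgeR adjusted p = 0.249). H2-Q4 shares 36.4% of its 50-base words with other genes, and its counts are uncertain for that reason.

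Of 8 genes of peptide loading and quality control in the endoplasmic reticulum, 4 were higher and 1 lower at an unadjusted p below 0.05, beside 9.86% and 11.9% of all genes, and DESeq2 called 3 and 1, beside 3.38% and 3.5%. It was 0 and 1 with the stroma score as a covariate, beside 5.31% and 5.84%, and 2 and 1 without sgTaz tumor 5, beside 8.59% and 11.6%. Calr, which encodes the chaperone calreticulin, had 767 ± 51.3 CPM (SD, n = 5) in sgCon and 871 ± 51.9 CPM (SD, n = 5) in sgTaz tumors. Uggt1, the sensor that sends misfolded glycoproteins back for folding, had a log2 fold change of 0.32 (SE 0.092, edgeR adjusted p = 0.107, DESeq2 adjusted p = 0.0188). The gene Pdia3, for the oxidoreductase ERp57 of the loading complex, was at 740, 738, 652, 783 and 695 CPM in sgCon tumors and at 840, 836, 827, 839 and 835 CPM in sgTaz tumors. This gave a log2 fold change of 0.21 (SE 0.067, edgeR adjusted p = 0.125, DESeq2 adjusted p = 0.0183). Sec61b, a subunit of the translocon, went the other way, with a log2 fold change of -0.33 (SE 0.092, edgeR adjusted p = 0.101, DESeq2 adjusted p = 0.0488).

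For the remaining proteasome genes, 0 of 5 immunoproteasome and activator genes and 0 of 3 constitutive catalytic subunits passed an unadjusted p below 0.05, beside 21.8% of all genes. Psme1, a subunit of the activator PA28, had a log2 fold change of 0.0047 (SE 0.11, 95% interval -0.24 to 0.25), and -0.11 with the stroma score as a covariate. Psme2, its partner, had -0.076 (SE 0.13), and -0.19 with the stroma score as a covariate. Pomp, the assembly factor of the proteasome, had -0.22 (SE 0.12). Psmb5, Psmb6 and Psmb7 had -0.074, -0.11 and -0.0042, and -0.23, -0.27 and -0.099 with the stroma score as a covariate, where 1 of the 3 was lower at an unadjusted p below 0.05, beside 5.84% of all genes. With each tumor left out in turn, Psmb5 was between -0.16 and 0.038, Psmb6 between -0.18 and -0.040 and Psmb7 between -0.047 and 0.037. In the same fits Psme1 was between -0.076 and 0.057, Psme2 between -0.17 and 0.00014 and Pomp between -0.28 and -0.13. Of 7 other peptidases, 2 were higher at an unadjusted p below 0.05 (9.86% of all genes), and 1 with the stroma score as a covariate (5.31%). Lap3, the cytosolic leucine aminopeptidase, was at 111, 124, 105, 127 and 97.7 CPM in sgCon tumors and at 156, 135, 138, 152 and 154 CPM in sgTaz tumors. This gave a log2 fold change of 0.38 (SE 0.085, edgeR adjusted p = 0.0896, DESeq2 adjusted p = 0.00622). Tpp2 had 0.29 (SE 0.096, edgeR adjusted p = 0.137). Lnpep, the most abundant of these peptidases, had 0.12 (SE 0.12), and 0.19 with the stroma score as a covariate. It was between 0.039 and 0.19 with each tumor left out in turn.

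Of 16 regulators, 1 was higher and 3 lower at an unadjusted p below 0.05, near the 9.86% and 11.9% of all genes, and 2 and 1 with the stroma score as a covariate, beside 5.31% and 5.84%. Rela, the p65 subunit of NF-κB, was at 90.1 ± 7.23 CPM (SD, n = 5) in sgCon and 71.1 ± 4.67 CPM (SD, n = 5) in sgTaz tumors, with a log2 fold change of -0.34 (SE 0.076, edgeR adjusted p = 0.0896, DESeq2 adjusted p = 0.00946). Of 7 receptors and co-receptors of class I molecules, 2 were higher and 1 lower at an unadjusted p below 0.05, beside 9.86% and 11.9% of all genes, and 1 and 0 with the stroma score as a covariate, beside 5.31% and 5.84%. Klrk1, which encodes the activating receptor NKG2D, had a log2 fold change of 0.61 (SE 0.19, edgeR adjusted p = 0.117, DESeq2 adjusted p = 0.0347). Cd8b1, a chain of the CD8 co-receptor, had -1.25 (SE 0.46, edgeR adjusted p = 0.160) and 0.051 (SE 0.37) with the stroma score as a covariate. All 10 T cell markers had a log2 fold change below 0, with a median of -1.83, and of 0.0058 with the stroma score as a covariate. One of them, Cd3d, had -1.94 (SE 0.58, edgeR adjusted p = 0.113), and -0.25 (SE 0.44) with the stroma score as a covariate. Cd8a had -0.50 (SE 0.32), and 0.35 (SE 0.31) with that covariate. Because score and group are tied, these moves toward or past 0 do not show the source of the T cell differences. Lilrb4a, the most abundant of the 7 receptors and co-receptors, had a log2 fold change of 0.31 (SE 0.24).

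Interferon-gamma responsive genes outside the class I pathway were set beside the 10 genes, as a list of 12, because the same cytokine drives both. This list too was chosen with earlier results of these data known. With edgeR, 0 of the 12 had an adjusted p below 0.05, and 10 of the 12 were higher in sgTaz tumors at an unadjusted p below 0.05, beside 1 of the 10 class I genes and 9.86% of all genes. DESeq2 called 7 of the 12 and limma-voom 5, all higher, beside 3.38% and 4.63% of all genes. The median log2 fold change was 0.36, and the groups did not overlap for 4 of the 12, all higher, beside 2.44% of all genes. Gbp7 was at 250.5, 256, 220.4, 194 and 208 CPM in sgCon tumors and at 326, 318, 309.5, 301 and 302 CPM in sgTaz tumors. This gave a log2 fold change of 0.46 (SE 0.085, edgeR adjusted p = 0.0824, DESeq2 adjusted p = 0.000143). Gbp4 had 0.56 (SE 0.12) and Iigp1, an immunity-related GTPase, 0.62 (SE 0.12), each with an adjusted p of 0.0824 from edgeR. The order of the sgTaz tumors was compared after the values were seen. Tumors 1 and 2 were above tumors 3 to 5 for 5 of the 12, Gbp2, Gbp3, Gbp7, Irgm1 and Irgm2, for 8 of the 10 class I genes and for 18% of all genes tested. The difference between the 2 lists was not tested. In the promoter table, 9 of the 12 genes had an entry, and an ISRE core was found in 9 of these 9, beside 12.5% of all promoters. The pair of TGACG and ATTGG was found in 0 of the 9, beside 0.0548% of all promoters, so that this 0 is near the background.

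Marker genes of other cell types differed between the tumors, and their part in the values above was not tested. The summed CPM of 10 B cell genes was 158, 242, 1020, 75.9 and 474 in sgCon tumors and 8.40, 8.01, 24.9, 13.4 and 239 in sgTaz tumors. Cd79a had the highest mean of them over the 10 tumors. For the 10 markers of lymph node stroma and high endothelial vessels it was 205, 197, 764, 78.5 and 284 in sgCon tumors and 30.8, 37.3, 36.3, 39.5 and 394 in sgTaz tumors. Glycam1, the stroma marker with the highest mean over the 10 tumors, was at 0, 0, 0 and 0.243 CPM in sgTaz tumors 1 to 4 and at 237 CPM in sgTaz tumor 5, and most of the sum in sgTaz tumors 1 to 4 was Bst1, at 24.8 to 32.7 CPM. Both lists were lower in sgTaz tumors 1 to 4 than in every sgCon tumor, and sgTaz tumor 5 lay among the sgCon tumors. With the stroma score as a covariate, the log2 fold change of Erap1 was 0.31 (SE 0.13, edgeR adjusted p = 0.430) and the median of the 10 genes 0.062. The log2 fold changes of class I genes that moved by more than 1.5 times in that fit were -0.45 for H2-K1, -0.30 for Psmb9, 0.15 for Tapbp, 0.053 for Psmb8, 0.034 for Nlrc5, 0.020 for H2-D1 and 0.071 for Tap1, with none called. In that fit 9 of the 12 interferon-responsive genes were higher at an unadjusted p below 0.05, beside 5.31% of all genes, and without sgTaz tumor 5 it was also 9, beside 8.59%.

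**Figure D5:**
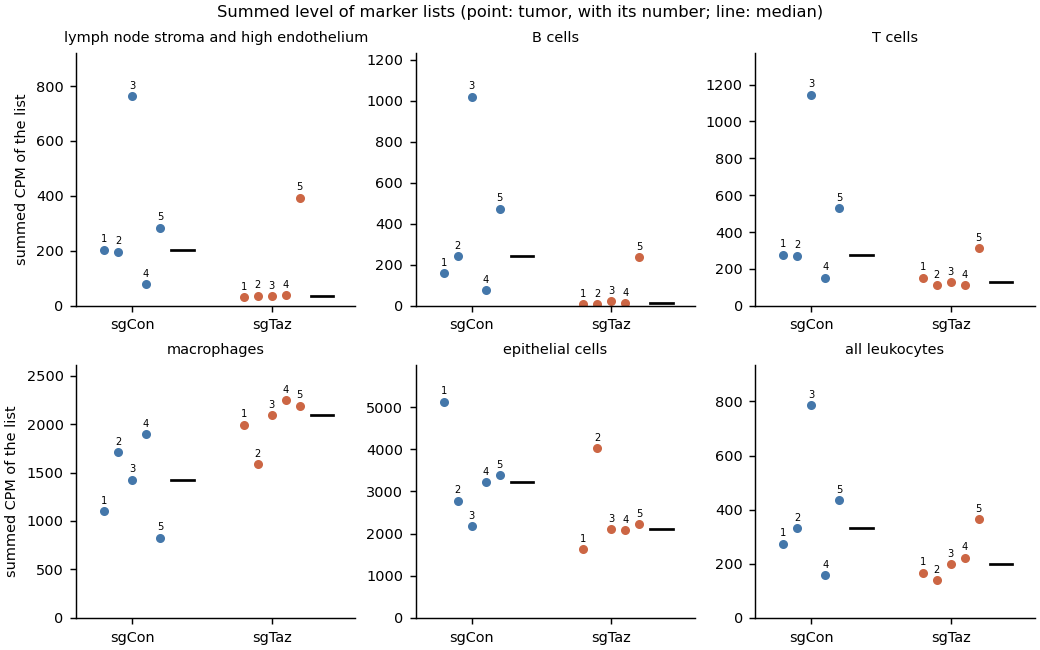
Summed TMM-normalized CPM of marker lists (vertical axes, from 0) in each sgCon (blue) and sgTaz (orange) tumor, with tumor numbers and a line for the median of 5 tumors. The B cell and lymph node lists are near the bottom in sgTaz tumors 1 to 4, sgCon tumor 3 is highest in the 3 lymphoid panels and in that of Ptprc, and the macrophage list has medians of 1427 in sgCon and 2094 in sgTaz tumors.

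The other lists were summed in the same way, and each is given with the gene of the highest mean over the 10 tumors, which need not lead in each group. The summed CPM of 10 T cell genes had a median of 278 (153 to 1145) in sgCon and 129 (111 to 313) in sgTaz tumors. Cd8a had the highest mean over the 10 tumors, whereas in sgCon tumors Tcf7 (86.9 CPM on average) and Lck (81.9 CPM) were above it (65.6 CPM). For 9 macrophage genes, led by C1qa, it was 1427 (828 to 1899) and 2094 (1589 to 2244). For 9 epithelial genes, led by Krt8, a keratin of 4T1 cells and of host mammary epithelium alike, it was 3216 (2185 to 5132) and 2105 (1628 to 4022). For 8 neutrophil genes, led by S100a9, it was 333 (176 to 719) and 175 (68.7 to 272), and Ptprc, a gene of all leukocytes, was at 332 (159.5 to 787) and 200 (139 to 366). Dendritic cell genes, led by Ccr7, had medians of 64.1 (41.7 to 187) and 51.6 (35.5 to 104), NK cell genes, led by Eomes, 14.2 (8.05 to 34.1) and 11.8 (10.2 to 20.7), and fibroblast genes, led by Col3a1, 4301 (1746 to 4869) and 3859 (1780 to 4797). Endothelial genes, led by Pecam1, had 377 (345 to 452) and 479 (284 to 579), adipocyte genes, led by Fabp4, 96.1 (53.4 to 118) and 205 (39.7 to 241), muscle genes, led by Tnnt3, 11.9 (7.88 to 42.9) and 8.74 (6.59 to 31.5), and red blood cell genes, led by Hbb-bs, 33.2 (22.3 to 60.4) and 53.4 (6.20 to 91.8). For 6 of the 14 lists, those of lymph node stroma, B cells, neutrophils, endothelium, adipocytes and red blood cells, the sums of sgTaz tumors 1 and 2 were below those of every sgCon tumor. The share of all genes with this order was not counted. No gene of these lists that is in the table was at 0 in every tumor. Members of a list did not all move with its sum. Among the 8 dendritic cell genes, 4 had a log2 fold change above 0 and 4 below, with a median of 0.017. Ccr7 was at -1.745, and the list median was 0.91 with the stroma score as a covariate. For the 4 tested NK cell genes, 2 were above 0 and 2 below. Among the 8 fibroblast genes, 5 were above 0, with Pdgfra at 1.09, and 3 below, with Thy1 at -0.61. Of the 9 macrophage genes, 6 were higher and 0 lower in sgTaz tumors at an unadjusted p below 0.05 with edgeR, of the 10 B cell genes 0 and 8 and of the 10 T cell genes 0 and 9, beside 9.86% higher and 11.9% lower of all genes. With the stroma score as a covariate it was 5 and 0 for macrophage, 0 and 4 for B cell and 0 and 0 for T cell genes, beside 5.31% and 5.84% of all genes. Class I molecules are made by nearly all nucleated cells, so that the nucleated cells among these can all contribute to the 10 genes.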

How the data were processed

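RNA of 10 whole 4T1 tumors was sequenced on an Illumina HiSeq instrument. The authors mapped reads to mm10 (GRCm38 per the labels) with STAR in 2-pass mode and GENCODE annotation and counted reads per gene with featureCounts of Subread; CASAVA is also named in the submitters' processing notes. The deposited values are these raw counts of the authors, for 17864 genes. Versions of the tools, the strand setting and treatment of multiple matches are not given in the sources used here. Another 5 columns belong to no sample of the series and were left out. Total counts were 14753922 to 19595821 in sgCon (median 17155103) and 12185383 to 18395558 in sgTaz tumors (median 15566873).

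Identifiers were matched to GENCODE M21 (17860 of 17864). Counts were analysed with edgeR 4.0.16 in R 4.3.3 (TMM, filterByExpr by group, glmQLFit, glmQLFTest, Benjamini-Hochberg over 14816 genes, threshold 0.05). No covariate was used. Log2 CPM and ratios had a prior count of 2. Exact tests used Python 3.11.15. Alternatives were DESeq2 1.42.0, limma-voom (limma 3.58.1), other normalizations and filters, a replicate block, the stroma score as covariate, each tumor left out in turn and, for ratios, a prior count of 0.5. No 2 tumors of a group agreed within sampling noise. P-values measure the spread between tumors of a group and do not cover differences between guides or between edited cell populations. The methods name a single target sequence for sgTaz. Effects of that guide or of the edited cells cannot be told apart from loss of TAZ. The scripts were tested on simulated data.

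The members and lists were chosen with earlier results of these data known. Named by rule are the 10 genes, Wwtr1, the most abundant gene and the 2 with the smallest p of each pathway list, genes of ratios, and the most abundant marker. Further genes are named outside this rule, such as H2-M3, Pdia3, Rfxank, H2-Ab1, Cd3d, Tcf7, Lck, Bst1, Pdgfra, Thy1, Gbp2, Gbp3, Irgm1 and Irgm2. H2-T3, H2-Q1, H2-Q2, H2-Aa and Hbb-bt were not analysed here, and 1 regulator that the rule names is not reported here.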

Additional observations from a re-analysis of the deposited data

Results flagged for a closer look

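Of 34 groups of 5 tumors examined, 3 held a tumor far from the other 4, and chance alone would give 1.7. All 3 concern sgCon tumor 3. Tap1 was at 372 CPM there, with the other sgCon tumors between 268 and 284 CPM. Tap2 was at 141 CPM, with the others between 111 and 119 CPM. The log2 ratio of Psmb9 to Psmb6 was -1.215, with the others between -1.70 and -1.59. In the same tumor the summed CPM of B cell genes was 1020 and that of T cell genes 1145, the highest of the 10 tumors, and the part of these cells in the values was not tested.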

How the results depend on the processing

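The number of all genes called depended on the test. It was 1 with edgeR, 1081 with DESeq2 and 1546 with limma-voom, 0 without a filter, with the replicate block and with the stroma score as covariate, and 5 with at least 10 counts in every tumor. At an unadjusted p below 0.05, the fits with 0 genes without a filter, with the block and with the covariate had 3610, 2462 and 1651. With each tumor left out in turn it was between 0 and 172, the most without sgTaz tumor 5 and 75 without sgTaz tumor 2. Of the 10 class I genes, 1 was called with DESeq2 and 1 with limma-voom, Erap1 in both, and 0 in the other fits. Of the 57 other pathway genes, 8 were called with DESeq2 and 9 with limma-voom, and 0 in the other fits. Of the 12 interferon-responsive genes, whose counts under the alternatives were added after seeing the data, 7 were called with DESeq2, 5 with limma-voom and 1 without sgTaz tumor 5.

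Of 180 fold changes of the 10 genes under alternatives, 175 kept their direction and side of the threshold, and 3 turned: H2-D1 (-0.0058) and Tap1 (-0.052) without sgTaz tumor 2, and Nlrc5 (-0.012) with limma-voom. Over the 10 fits without 1 tumor, the fold change on the log2 scale was between -0.0058 and 0.091 for H2-D1 and between -0.052 and 0.14 for Tap1, -0.38 and -0.22 for H2-K1, 0.045 and 0.12 for B2m, 0.054 and 0.19 for Tap2, 0.17 and 0.29 for Tapbp, 0.082 and 0.18 for Psmb8, -0.28 and -0.021 for Psmb9, 0.0011 and 0.099 for Nlrc5, and the median of the 10 genes between 0.027 and 0.13. The log2 ratio differed by 0.14 to 0.28 for Psmb8 to Psmb5, which passed without sgCon tumor 1 (0.28, exact permutation test, adjusted p = 0.0476), by -0.14 to 0.047 for Psmb9 to Psmb6, by -0.13 to 0.098 for Psmb10 to Psmb7 and by -0.11 to -0.0041 for H2-D1 to B2m. The causes were not tested.

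The replicate numbers did not pair the tumors. The correlation of deviations of same-numbered tumors over all genes tested was between -0.24 and 0.22, and 1 of 5 sgCon tumors correlated best with its own number. With the replicate block, Erap1 had a log2 fold change of 0.37 (adjusted p = 0.173 from edgeR), and no call of the 10 genes or of a ratio changed. Sign flips of 5 pairs cannot give a p below 0.0625. Depth limits H2-K1 most, with 92 to 229 counts per tumor.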

Other observations

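Class II presentation, by which macrophages, dendritic cells and B cells show peptides to CD4+ T cells, was covered by a list of 7 genes, of which 5 were tested. With edgeR, 0 of the 5 had an adjusted p below 0.05, while 4 were higher in sgTaz tumors at an unadjusted p below 0.05, beside 9.86% of all genes, limma-voom called 3, beside 4.63%, and DESeq2 called 0, beside 3.38%. With the stroma score as a covariate, 3 were higher at an unadjusted p below 0.05, beside 5.31%. Summed macrophage genes had medians of 1427 CPM in sgCon and 2094 CPM in sgTaz tumors, and B cell genes 242 and 13.35 CPM. Their part in the class II values was not tested. Cd74, the invariant chain, was at 1921 ± 517 CPM (SD, n = 5) in sgCon and 2595 ± 327 CPM (SD, n = 5) in sgTaz tumors, a log2 fold change of 0.43 (SE 0.17, edgeR adjusted p = 0.182). H2-Eb1 had 0.57 (SE 0.19) and H2-DMa 0.48 (SE 0.16). H2-Ab1, another polymorphic gene of the H2 complex, had 1 to 12 counts per tumor and was not tested, while H2-Eb1 had 2387 to 6916.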
